A study of Rattus norvegicus with 6 samples.

Results

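Red blood cells leave a small and specific set of transcripts in whole-organ RNA. Their young form, the reticulocyte, has lost its nucleus but still carries messenger RNA, and the mature cell carries remnants of it. The main products are the alpha- and beta-globin chains, which pair with haem to form haemoglobin. Alas2 makes the first committed step of haem synthesis in red cell precursors, Slc4a1 (band 3) exchanges chloride for bicarbonate across the red cell membrane, and Car2 is the carbonic anhydrase that forms that bicarbonate. Alox15 oxidises membrane lipids and is known, mostly from rabbit, for its part in clearing organelles from reticulocytes, while Lgals5 is a galectin found on rat red cells. A heart taken with blood in its vessels and chambers holds all of these beside its muscle, and the sources used here do not say whether the hearts were rinsed.

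The 9 genes described here, Alas2, Slc4a1, Hbb-b1, Hbb-bs, Hbb, Hba-a1, Car2, Lgals5 and Alox15, are 9 of 15037 genes with a symbol on the array. Each has 1 row in the table, so the choice of the brightest row changed nothing. The list was put together with the difference between TAC and normal hearts already known. Their values in that comparison, and in the comparison of TAC-R with TAC hearts, which uses the same TAC arrays, are therefore given as a description without a test.

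The study placed whole-heart RNA of male Sprague-Dawley rats, 10 weeks old, on 6 Clariom S Rat arrays, 2 in each of 3 groups: TAC-R hearts, taken after the ligature was released, TAC hearts, and normal hearts. TAC is a silk ligature tied over a blunt needle around the transverse aorta, which makes the left ventricle pump against a narrowing. The labels speak of control rats operated on without ligation but do not say whether the normal hearts are theirs, and the sources used here give neither the duration of TAC nor the time since release nor the number of animals behind an array. Values are log2 signals after robust multi-array averaging (RMA), so 1 unit is a 2-fold step. The p-values rest on the scatter between the 2 arrays of a group, pooled over the 3 groups and moderated by that of all rows. This scatter could be purely technical.

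The arrays had medians from 5.31 to 5.39 log2 units, and the 95th percentile of the negative control rows, used here as the limit of background, lay between 8.09 and 8.55. Of 23188 rows tested, 16981 had a mean under 8.18, the same percentile taken over the row means of these controls. A signal in the background is therefore common and is no sign that a transcript is absent. The scale stops at 19.9315. One field of the labels mentions cultured fibroblasts. Heart muscle markers were nonetheless bright, Pln, Myl3, Mb and Actc1 standing at the top of the scale on all 6 arrays, and the mean over 11 measured heart muscle markers ran from 19.00 to 19.33. In whole-heart RNA a larger number of red cells and more RNA per red cell cannot be told apart.

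The start regions of the globin genes are shown as a description, and whether they bear on the array values was not tested. The 3 beta-globin genes lie close together on chromosome 1 of the rat reference GRCr8, Hbb-bs at chr1:167630245-167631630, Hbb-b1 at chr1:167636064-167643577 and Hbb at chr1:167662310-167663721, all on the minus strand, with alpha-globin Hba-a1 at chr10:15841724-15842580. The sequences are the 130 bases before the start that the RefSeq promoter table uses, 5′ to 3′. For Hbb-b1 that start lies inside the annotated gene span given above, so part of its window overlaps the span. Capitals mark matches to words known from globin promoters, searched on both strands: the CACCC word, the CCAAT word, the TATAAA word and, for GATA factors, the word AGATAA or AGATAG as well as the word TGATAA or TGATAG.
Hbb (chr1:167663722-167663851): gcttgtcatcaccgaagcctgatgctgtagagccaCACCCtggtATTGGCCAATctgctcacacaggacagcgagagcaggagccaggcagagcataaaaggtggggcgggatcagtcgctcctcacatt
Hbb-b1 (chr1:167643521-167643650): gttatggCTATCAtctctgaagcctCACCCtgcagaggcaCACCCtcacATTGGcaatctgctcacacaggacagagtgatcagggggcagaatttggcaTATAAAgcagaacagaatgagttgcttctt
Hbb-bs (chr1:167631631-167631760): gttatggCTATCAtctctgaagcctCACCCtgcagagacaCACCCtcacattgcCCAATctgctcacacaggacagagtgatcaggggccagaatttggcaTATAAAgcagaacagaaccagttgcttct
Hba-a1 (chr10:15842581-15842710): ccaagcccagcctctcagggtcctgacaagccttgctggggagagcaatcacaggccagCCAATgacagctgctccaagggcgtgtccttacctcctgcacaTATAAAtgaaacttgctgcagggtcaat

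Over 250 bases before the start, Hbb-b1 and Hbb-bs were 93.6% identical, whereas Hbb was 60.9% identical to Hbb-b1 and 61.2% to Hbb-bs. Hbb has a CCAAT word on each strand, directly next to each other, from 86 to 77 bases before the start. Hbb-bs has the word on the forward strand alone and Hbb-b1 on the reverse strand alone. Both Hbb-b1 and Hbb-bs have a TATAAA word and a reverse-strand TGATAG word that Hbb lacks in this window. Such words are common: of 33469 start regions of the same length, 34.0% hold CCAAT, 49.2% CACCC, 12.9% TATAAA and 27.0% a GATA word. Only exact words were searched, so near matches such as the cataaaa printed for Hbb are not marked. The matches are a description of the reference rat, a Brown Norway strain, and not of the animals on the arrays. Start regions were matched for 6 of the 9 genes, not for Slc4a1, Car2 and Alox15. The array rows of such similar globin genes can also share transcripts, so Hbb-b1 and Hbb-bs are uncertain as separate genes. The array's own row names mark the rows of both as unmapped, so their positions here rest on the gene annotation.

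All 9 genes were higher on both TAC arrays than on either normal array, as were 21.9% of all rows, and all 9 were lower on both TAC-R arrays than on either TAC array, as were 20.4% of all rows. Against normal hearts, TAC-R hearts were higher on both arrays for 8 of the 9, Hbb-b1 being the exception, and for 20.6% of all rows. For these 8 genes the arrays fell into 3 separate tiers, TAC highest, TAC-R between and normal lowest, an order that 1.92% of all 23188 rows showed. For Slc4a1, Car2, Lgals5 and Alox15 both the TAC-R and the normal tier lay in the background. The normal tier of Alas2 did so too, and the TAC tier of Hba-a1 was at the top of the scale.

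**Figure D1:**
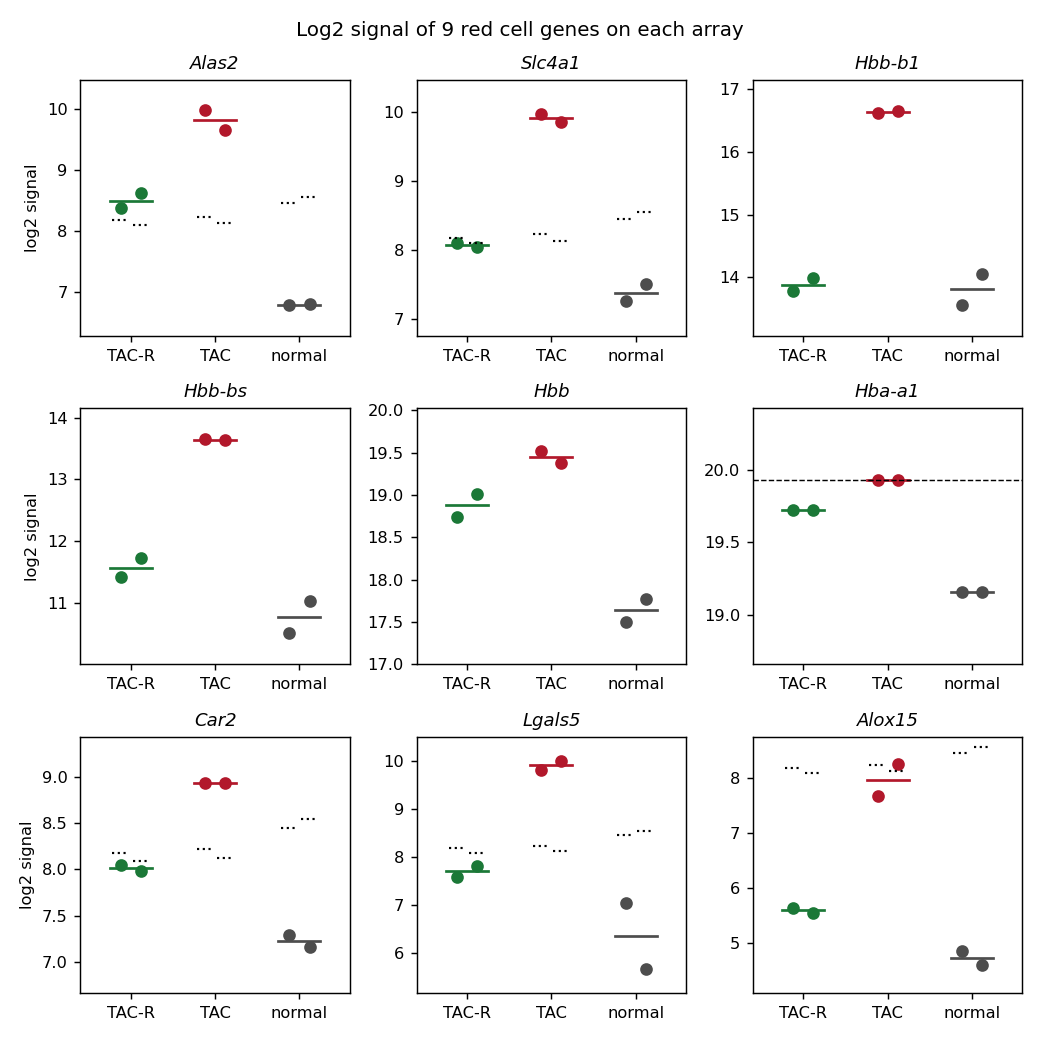
Log2 signal of each gene (vertical axes, a separate scale per panel) on the 2 arrays of the TAC-R, TAC and normal groups; points are arrays, solid lines group means, short dotted lines (where within the panel) each array's 95th percentile of negative controls, and the dashed line for Hba-a1 the top of the scale at 19.9315. The 2 TAC points lie above all others in every panel, and for Hbb-b1 the TAC-R and normal points overlap.

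Alas2 had 8.36 and 8.61 log2 units on the TAC-R arrays, 9.97 and 9.65 on the TAC arrays and 6.77 and 6.80 on the normal arrays. Both normal signals lay in the background, so TAC hearts were at least 2.49-fold higher than normal hearts. TAC-R hearts were clear of the background limit of their own arrays and 2.50-fold below TAC hearts (difference -1.32 ± 0.22 log2 units, with the standard error of the model here and below). Slc4a1 had 8.10 and 8.03 on the TAC-R arrays, 9.96 and 9.85 on the TAC arrays and 7.25 and 7.51 on the normal arrays. Its TAC signals alone lay above background, at least 3.42-fold over TAC-R hearts and at least 2.66-fold over normal hearts. The membrane exchanger thus had a TAC-R level inside the background, in contrast to Alas2, whose TAC-R signals stayed just above it.

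The globins were the brightest of the 9. Hbb-b1 and Hbb-bs lay clear of the background and of the top of the scale on every array, whereas the top of the scale limited Hba-a1 and Hbb. Hbb-b1 had 13.78 and 14.00 log2 units on the TAC-R arrays, 16.62 and 16.65 on the TAC arrays and 13.57 and 14.05 on the normal arrays. TAC hearts were 7.09-fold above normal hearts, a difference of 2.83 ± 0.24 log2 units, and TAC-R hearts were 6.73-fold below TAC hearts (-2.75 ± 0.24). The TAC-R values fell within the range of the normal ones. Hbb-bs had 11.42 and 11.73 on the TAC-R arrays, 13.65 and 13.64 on the TAC arrays and 10.51 and 11.04 on the normal arrays. It was 7.29-fold higher in TAC than in normal hearts and 4.20-fold lower in TAC-R than in TAC hearts, and its TAC-R arrays lay above both normal arrays.

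Hbb had 18.75 and 19.02 log2 units on the TAC-R arrays, 19.53 and 19.38 on the TAC arrays and 17.50 and 17.77 on the normal arrays. It was 3.53-fold higher in TAC than in normal hearts but only 1.49-fold lower in TAC-R than in TAC hearts (-0.57 ± 0.22), so that 31.6% of the TAC-normal gap was lost, against 97.3% for Hbb-b1 and 72.2% for Hbb-bs. Its TAC signals were near the top of the scale, where differences can be compressed. Hba-a1, the alpha chain, had 19.72 on both TAC-R arrays, 19.93 on both TAC arrays and 19.15 and 19.16 on the normal arrays. Both TAC arrays were at the top of the scale, so TAC hearts were at least 1.71-fold above normal hearts and at least 1.16-fold above TAC-R hearts.

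The beta-globin rows were also compared within each array, which bears on unequal change and not on their relative amounts. Hbb signals near the top of the scale can lower its differences on the TAC arrays, and similar rows can share transcripts. Hbb minus Hbb-b1 was 4.97 and 5.02 log2 units on the TAC-R arrays, 2.91 and 2.73 on the TAC arrays and 3.93 and 3.72 on the normal arrays. Hbb-b1 minus Hbb-bs was 2.35 and 2.27 on the TAC-R arrays, against 2.97 and 3.02 on the TAC arrays and 3.05 and 3.01 on the normal arrays. For the last pair the TAC and normal arrays overlapped in range and both TAC-R arrays lay below them. For the first pair the 3 groups did not overlap, with TAC-R arrays highest and TAC arrays lowest. These pairs were picked after their values were seen and have no test. A further beta-globin gene, Hbbl1, also noticed in the table, had 15.67 and 15.80 on the TAC-R arrays, 16.66 and 16.56 on the TAC arrays and 14.61 and 14.89 on the normal arrays, in the same 3 tiers as Hbb.

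**Figure D2:**
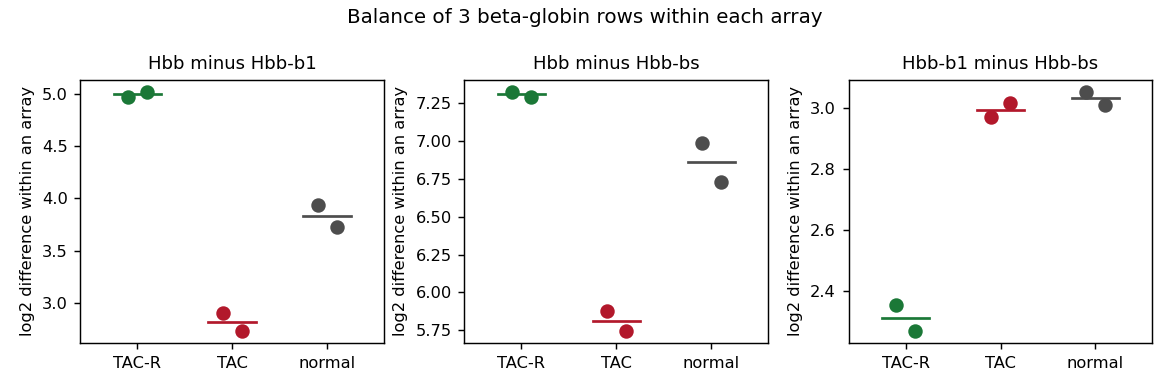
Log2 difference between pairs of beta-globin rows within an array (vertical axes, not starting at 0) for TAC-R, TAC and normal arrays; points are arrays and lines group means. Hbb minus Hbb-b1 averages 4.99 on TAC-R, 2.82 on TAC and 3.83 on normal arrays, and Hbb-b1 minus Hbb-bs averages 2.31, 2.99 and 3.03 in the same order of groups.

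The remaining genes were dim outside TAC hearts. Car2 had 8.05 and 7.98 log2 units on the TAC-R arrays, 8.93 on both TAC arrays and 7.29 and 7.17 on the normal arrays, at least 1.74-fold higher in TAC than in TAC-R hearts and at least 1.35-fold higher than in normal hearts. Lgals5 had 7.59 and 7.81 on the TAC-R arrays, 9.80 and 10.00 on the TAC arrays and 7.04 and 5.66 on the normal arrays. Its TAC-normal difference, 3.55 ± 0.39, ranked 1 of 23188 rows, but the normal arrays lay in the background and 1.38 units apart, the widest gap between arrays of a group among the 9 genes, and the bound was 2.65-fold. Alox15 had 5.63 and 5.54 on the TAC-R arrays, 7.66 and 8.24 on the TAC arrays and 4.84 and 4.59 on the normal arrays. Only 1 TAC array passed its background limit for Alox15, so the size of its differences, 3.23 ± 0.25 against normal and -2.36 ± 0.25 for TAC-R against TAC, was not measured.

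Across the 9 genes the median difference was 2.83 log2 units for TAC against normal hearts, -1.84 for TAC-R against TAC and 0.80 for TAC-R against normal, beside medians near 0.00 over all rows in each. limma's moderated test, run over all 23188 rows with Benjamini-Hochberg adjustment and a threshold of 0.05, called 8 of the 9 higher in TAC than in normal hearts, beside 0.19% of all rows, and 4 of the 9 lower in TAC-R than in TAC hearts, beside 0.207%. The list was chosen on the first contrast and the second shares its TAC arrays, so neither count is read as support. The 4 were Slc4a1, Hbb-b1, Hbb-bs and Alox15. With only the groups compared in the fit the counts were 8 and 5, and each leave-one-out fit also held only those groups. Leaving out 1 array at a time gave 0 to 8 calls in the first (0 without TAC replicate 2, 3 without normal replicate 1, 5 without TAC replicate 1) and 0 to 5 in the second, with 0 without TAC-R replicate 1 or TAC replicate 2 and 1 without TAC-R replicate 2 or TAC replicate 1.

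Whether hearts released from TAC still differed from normal hearts is the contrast that weighed least in the choice of genes. It was not free of that choice, as earlier results were known and it shares the normal arrays. Genes picked for being low on those arrays lean towards a higher TAC-R value, so the p-values below are not independent of the choice. Alas2 came under the threshold, at 8.49 ± 0.17 log2 units in TAC-R hearts and 6.79 ± 0.02 in normal hearts (SD, n = 2 each), with limma's adjusted p = 0.0493 over all rows. Its size was not measured, because the normal signals were in the background and the TAC-R mean did not exceed the background limit of the normal arrays. It was 1 of 9 genes called, against 0.0604% of rows called higher. The call was at the edge: it was lost with only the 2 groups compared in the fit (limma adjusted p = 0.105). Every leave-one-out fit held only those 2 groups and lost it too. The difference ran from 1.58 to 1.82 log2 units in these fits.

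The 8 other genes did not pass. Hbb was 1.24 ± 0.22 log2 units higher in TAC-R than in normal hearts, 2.37-fold (limma adjusted p = 0.122). Hbb-bs differed by 0.80 ± 0.25 and Hba-a1 by 0.57 ± 0.20, with Hba-a1 below the top of the scale in both groups (limma adjusted p = 0.337 and 0.385). Hbb-b1 differed by 0.08 ± 0.24 (limma adjusted p = 0.939). Slc4a1, Car2, Lgals5 and Alox15 differed by 0.69, 0.78, 1.35 and 0.87, in each case between signals in the background, with limma adjusted p from 0.281 to 0.334. In all, 8 of the 9 had an unadjusted limma p under 0.05, as did 10.7% of all rows, and 8 had groups that did not overlap with TAC-R higher, as did 20.6% of all rows.

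**Figure D3:**
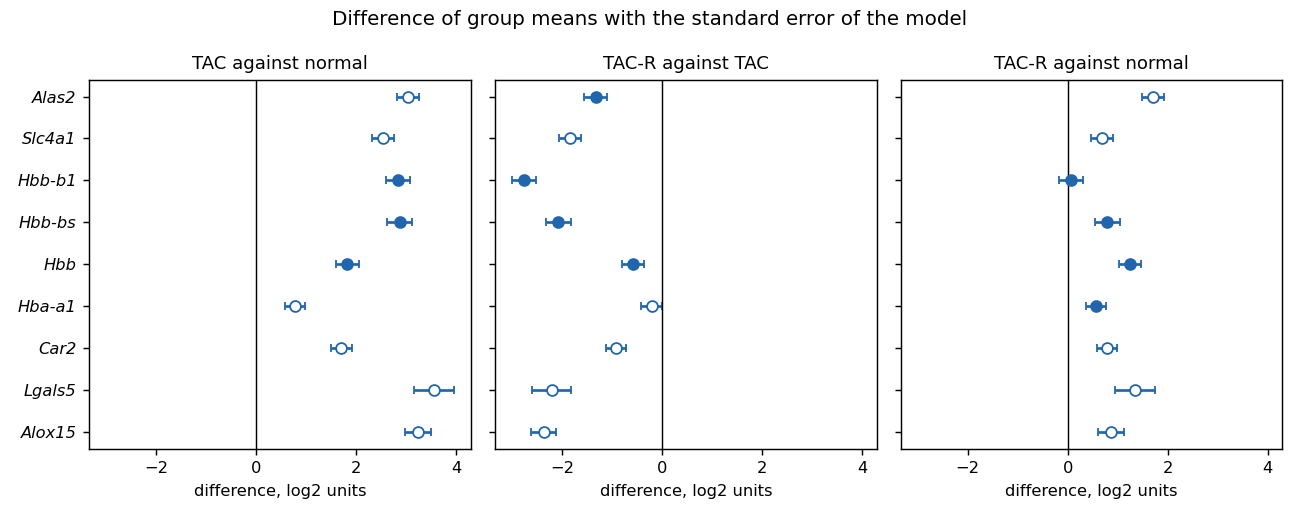
Difference of group means in log2 units (horizontal axes) for each gene in the 3 comparisons, the first-named group minus the second; points are estimates and bars 1 standard error of the model. Open points rest on a group in the background or at the top of the scale, and the differences for TAC-R against normal run from 0.08 for Hbb-b1 to 1.70 for Alas2.

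The profiles of the 8 genes that never reached the top of the scale resembled each other across the 6 arrays, which share the same 3 groups. Pearson's r over the 28 pairs ran from 0.760, for Hbb-b1 with Hbb, to 0.994, for Slc4a1 with Hbb-bs, with a median of 0.944, given as a description. Among 223 other genes that were above background on average and varied by an SD of at least 0.5, the 10 with the profile most like the mean of these 8 were Apoe (r = 0.985), Usp18, Wfdc1, Ifitm3, Nudt4, Ucp2, Hbbl1, Bdh1, Acot2 and Angptl2 (r = 0.964). Hbbl1 is the 1 globin among them. Apoe, a lipid carrier made by macrophages and other cells, had 11.21 and 10.89 log2 units on the TAC-R arrays, 12.34 and 12.28 on the TAC arrays and 10.23 and 10.47 on the normal arrays. Ucp2, a mitochondrial carrier, had 17.31 and 16.79, then 18.22 and 18.14, then 16.15 and 16.18 on the TAC-R, TAC and normal arrays. Both genes, which serve other functions, showed the same 3 tiers. They were picked for likeness to this mean profile, so their tiers are no separate observation.

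Other genes of red cells were then examined. Of 83 listed genes in 5 groups (other globins, haem synthesis, red cell membrane, reticulocyte and red cell enzymes, erythroid regulators), 63 had a row and 29 of these were in the background on all 6 arrays. limma called 0 of 63 in every comparison, where it called 0.254%, 0.431% and 0.0906% of all rows in TAC against normal, TAC-R against TAC and TAC-R against normal. Hbbl1, in none of these lists and picked after its values were seen, was called higher in TAC than in normal hearts. Its difference was 1.86 log2 units (limma adjusted p = 0.0132, beside 0.19% of rows called higher). It was not called in the other comparisons. At an unadjusted limma p under 0.05 there were 14, 15 and 11 of the 63, beside 10.3%, 11% and 10.7% of all rows. With an intensity trend in the variance model limma called 3 in TAC against normal and 4 in TAC-R against TAC. Their median difference was 0.17 for TAC against normal and -0.14 for TAC-R against TAC. Of the 63, 28 were higher and 10 lower on both TAC arrays than on both normal arrays, beside 21.9% and 21.3% of all rows.

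Among the globins with a row, Hba-a3 had 9.26 and 9.25 log2 units on the TAC-R arrays, 9.65 and 10.22 on the TAC arrays and 8.59 and 8.99 on the normal arrays (1.15 for TAC against normal, limma adjusted p = 0.194). The embryonic and fetal-type globins Hbe1, Hbe2, Hbg1 and Hbz were in the background on every array. In haem synthesis, the housekeeping enzyme gene Alas1 had a TAC-normal difference of 0.25 at a signal near 16 on the TAC arrays, unlike its red cell counterpart. The mitochondrial carrier gene Slc25a39 differed by 0.69 and Alad, the second enzyme, by 0.48 (limma adjusted p = 0.327 and 0.503), and 0 of 12 haem synthesis genes passed, with 1 at an unadjusted p under 0.05. Of 15 red cell membrane genes 0 passed, with 4 at an unadjusted p under 0.05. Gypc, a glycophorin also made outside red cells, differed by 0.44 and Stom by 0.38 (limma adjusted p = 0.521 and 0.646), whereas Epb42, a band 3 partner, differed by 1.41 at signals in the background throughout.

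Of 20 reticulocyte and red cell enzyme genes 0 passed, with 6 at an unadjusted p under 0.05, and the largest differences between TAC and normal hearts had TAC higher. Mkrn1, a ubiquitin ligase, had 9.52 and 9.46 log2 units on the TAC-R arrays, 9.84 and 10.72 on the TAC arrays and 8.81 and 8.35 on the normal arrays (1.70 for TAC against normal, limma adjusted p = 0.103). Bpgm, which makes the phosphate that loosens oxygen from haemoglobin, had 7.35 and 7.53, then 8.35 and 8.43, then 7.25 and 7.27 on the TAC-R, TAC and normal arrays. Its TAC-R and normal signals lay in the background and the TAC mean did not exceed the background limit of the normal arrays, so the TAC-normal difference of 1.13 (limma adjusted p = 0.103) is no measure of its size. Ahsp, the chaperone of alpha-globin, was in the background on every array, at 5.00 to 5.64 across TAC-R and TAC arrays and 4.99 and 5.08 on normal arrays. Blvrb, biliverdin reductase B, went the other way, having 8.40 and 8.76 on the TAC-R arrays, 7.17 and 7.30 on the TAC arrays and 7.60 and 7.46 on the normal arrays (limma adjusted p = 0.0505 for TAC-R against TAC). Both TAC and both normal signals of Blvrb lay in the background, so TAC-R hearts were at least 1.33-fold above TAC hearts.

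Of the measured erythroid regulators and receptors, only Tfrc and Zfpm1 passed the background limit on any array. Zfpm1 did so on TAC replicate 1 alone, at 8.54 log2 units. Gata1 and Klf1, the master regulators of the erythroid lineage, and the erythropoietin receptor gene Epor lay in the background on all 6 arrays, as did 9 of the 11 measured erythroid regulators, and limma called 0 of the 11 in any comparison, with 2 at an unadjusted p under 0.05 in each. Tfrc, the transferrin receptor, which heart muscle also makes, had 12.30 and 12.67 log2 units on the TAC-R arrays, 13.61 and 13.47 on the TAC arrays and 12.96 and 12.87 on the normal arrays. Its differences were 0.63 for TAC against normal and -1.05 for TAC-R against TAC (limma adjusted p = 0.406 and 0.123).

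**Figure D4:**
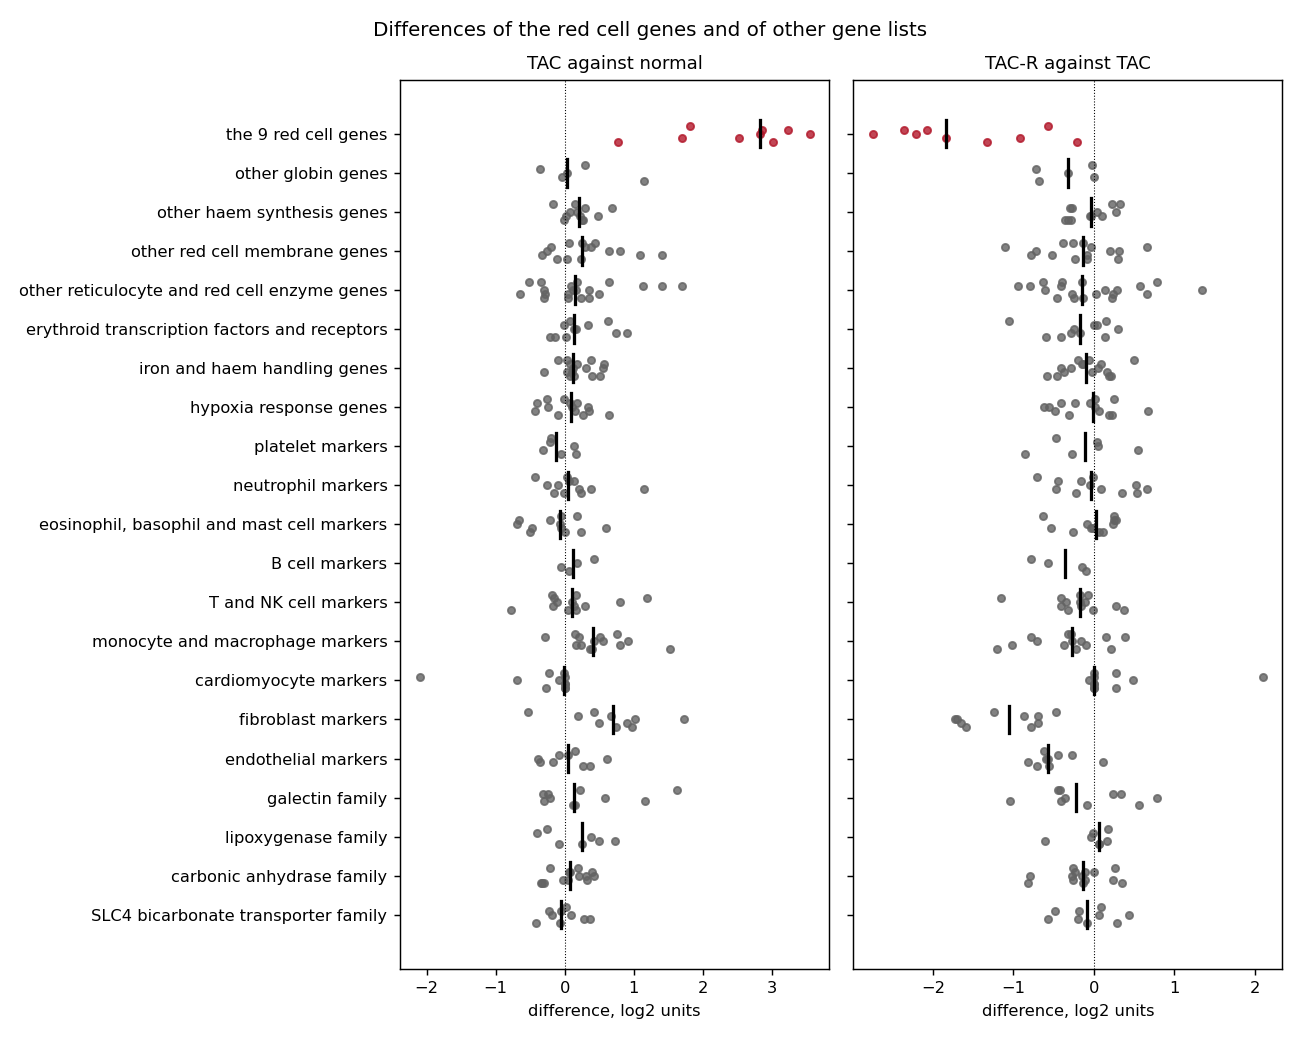
Difference of group means in log2 units (horizontal axes) for the 9 red cell genes (red) and for genes of 20 other lists (grey), TAC against normal on the left and TAC-R against TAC on the right; points are genes, spread vertically for legibility only, and black bars are medians. The median of the 9 genes is 2.83 on the left and -1.84 on the right, and the medians of the other lists lie between -0.13 (platelet markers) and 0.71 (fibroblast markers) on the left and between -1.06 (fibroblast markers) and 0.06 (lipoxygenases) on the right.

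Iron, haem and oxygen genes were examined next. Of 16 iron and haem handling genes limma called 0 in any comparison, with 0, 1 and 2 at an unadjusted p under 0.05 in TAC against normal, TAC-R against TAC and TAC-R against normal, and their median TAC-normal difference was 0.12. Slc40a1, the iron exporter ferroportin, differed by 0.56 and the ferritin chain Ftl1 by 0.37 between TAC and normal hearts (limma adjusted p = 0.504 and 0.582). Hmox1, which breaks down haem, was in the background on all arrays, with a difference of 0.57. Of 14 hypoxia response genes limma called 0, with 1 at an unadjusted p under 0.05 in TAC against normal and a median of 0.10. Bnip3 had a difference of -0.43 and Hif1a one of 0.36 (limma adjusted p = 0.622 and 0.583), and Epo, the hormone that drives red cell production, was in the background.

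The relatives of the 9 genes were also examined. In the galectin family, Lgals9, which lies near Lgals5 on chromosome 10, had 9.13 and 8.92 log2 units on the TAC-R arrays, 9.74 and 10.40 on the TAC arrays and 8.98 and 8.82 on the normal arrays. Its TAC-normal difference was 1.17 (limma adjusted p = 0.193). Because the 2 galectins are similar in sequence, their rows may share signal. Lgals3bp, a secreted galectin-binding protein also known as an interferon-responsive gene, rose by 1.62 ± 0.25 in TAC against normal hearts (limma adjusted p = 0.0491), and it was the 1 of 10 galectin family genes called, beside 0.19% of rows. The call was lost with only the 2 groups compared in the fit (limma adjusted p = 0.0650). It was also lost in every leave-one-out fit, each with only those groups. All 7 other lipoxygenase genes were in the background on every array, and limma called 0 of them in TAC against normal, with 1 at an unadjusted p under 0.05. Of 14 other carbonic anhydrases limma called 0, with 0 at an unadjusted p under 0.05, and 13 were in the background, with Car14, a membrane form of heart muscle, differing by 0.21. Of 9 other SLC4 transporters limma called 0, with 0 at an unadjusted p under 0.05, the heart exchanger gene Slc4a3 differing by 0.37 and Slc4a4 by 0.09.

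Markers of other blood cells were read beside the red cell genes. Of 6 platelet markers 5 were in the background on every array, and Pf4 had 8.44 and 8.75 log2 units on the TAC-R arrays, 9.64 and 9.26 on the TAC arrays and 9.43 and 9.14 on the normal arrays. All 12 neutrophil markers, all 12 markers of eosinophils, basophils and mast cells, all 4 B cell markers and 12 of 13 T and NK cell markers were in the background on every array. Most rows of the array had a mean below the background limit, so these counts do not show that such cells were absent. The median TAC-normal differences of these 5 lists were -0.13, 0.05, -0.07, 0.12 and 0.10, and limma called 0 of their genes in any comparison, with 0, 1, 2, 0 and 3 at an unadjusted p under 0.05 in TAC against normal. The exception among T cell markers was Cd4, which rat macrophages also carry, at 10.31 and 9.24 on the TAC-R arrays, 11.01 and 10.85 on the TAC arrays and 9.87 and 9.61 on the normal arrays.

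Some tissue cell markers moved in the same direction as the red cell genes. Monocyte and macrophage markers had a mean level over 14 genes of 6.86 and 6.74 log2 units on the TAC-R arrays, 7.14 and 7.13 on the TAC arrays and 6.73 and 6.57 on the normal arrays, and 13 of the 14 were higher in TAC than in normal hearts, with 0 called by limma, 6 at an unadjusted p under 0.05 and 10 in the background on every array. Macrophages take up old red cells and can express Alox15, and their part in the Alox15 values was not tested. Fibroblast markers averaged 9.15 and 8.74 over 10 genes on the TAC-R arrays, 10.14 and 10.04 on the TAC arrays and 9.42 and 9.44 on the normal arrays. The median difference of these 10 was 0.71 for TAC against normal and -1.06 for TAC-R against TAC, with 6 and 9 at an unadjusted limma p under 0.05. Of the 10, Col3a1 and Col1a2 fell in TAC-R against TAC hearts, by 1.72 and 1.66 (limma adjusted p = 0.0269 and 0.0469), beside 0.207% of rows. Both calls were lost with only the 2 groups compared in the fit (limma adjusted p = 0.0826 and 0.100). They were also lost in every leave-one-out fit, each with only those groups. Endothelial markers averaged 10.36 and 10.00 over 9 genes on the TAC-R arrays, 10.73 and 10.63 on the TAC arrays and 10.55 and 10.72 on the normal arrays, with 0 called by limma. At an unadjusted p under 0.05 there was 1 of 9 in TAC against normal and 5 of 9 in TAC-R against TAC, where the median difference was -0.57 and 8 of the 9 were lower. Fibroblast markers were on average lowest on the TAC-R arrays. All 9 red cell genes had their lowest mean in normal hearts, a group used in the choice of these genes. For Hbb-b1 the TAC-R and normal means were close (difference 0.08 ± 0.24), and Slc4a1, Car2, Lgals5 and Alox15 lay in the background in both groups. The part of macrophages, fibroblasts and endothelial cells in the red cell values was not tested.

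Of 11 measured heart muscle markers limma called 1, the myosin heavy chain gene Myh7, in TAC against normal and in TAC-R against TAC. Of all rows it called 0.254% and 0.431% there. Pln, Myl3, Mb and Actc1 stood at the top of the scale on all arrays, where no difference can be seen. Myh6, the other cardiac myosin heavy chain gene listed, had no row under its symbol. Whether the Myh7 row also reads Myh6 transcripts was not tested. The Myh7 row had 19.93 and 19.91 log2 units on the TAC-R arrays, 17.87 and 17.76 on the TAC arrays and 19.91 and 19.93 on the normal arrays. With both other groups at or near the top of the scale, TAC hearts were at least 4.30-fold below normal hearts (limma adjusted p = 0.00627) and TAC-R hearts at least 4.30-fold above TAC hearts (limma adjusted p = 0.00663). Both calls held with only the groups compared in the fit (limma adjusted p = 0.0226 and 0.0267). Each was lost when any array of those groups was also left out.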

How the data were processed

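The deposited table holds log2 signals, 1 column per array, which the authors made with RMA in Expression Console at core-exon level, per the labels. The sources used here name no versions. The 24834 rows include 1646 control rows, which were left out, leaving 23188. A platform annotation gave 1 symbol to 15049 of them and several to 0. Differences were tested with limma 3.58.1 (R 4.3.3), lmFit and eBayes on all 6 arrays with 1 mean per group, 3 residual degrees of freedom and no covariate, called at a Benjamini-Hochberg adjusted p under 0.05. For 2 arrays a group, p = 0.333 is the smallest value of an exact permutation test (two-sided). There are no detection calls: a row counted as in the background in a group when both arrays lay under their own 95th percentile of 1153 negative control rows, and a fold against it is a bound, with that percentile as floor. The number of arrays limits the precision. The fit was tested on simulated data. Arrays of 1 group were all taken as replicates.

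Members and gene lists were chosen with earlier results of these data known. Named genes were all 9 members, up to 2 genes per list with the largest TAC-normal difference above background, any listed gene that passed, fixed relatives such as Alas1 and Lgals9, and the 10 genes most like the members by Pearson's r. Hbbl1, Epb42, Blvrb and Zfpm1, the cell type marker genes described singly, and the within-array differences were chosen after their values were seen. Alternatives changed the scaling, the row filter, the variance model and the arrays. Start regions came from RefSeq (GRCr8).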

Additional observations from a re-analysis of the deposited data

How the results depend on the processing

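The 9 red cell genes kept their direction in TAC against normal and in TAC-R against TAC under all 16 alternatives (Hba-a1 in 15, as it has no row when rows at the top of the scale are left out). In TAC-R against normal, Hbb-b1 turned to -0.03 without TAC-R replicate 2 and to -0.17 without normal replicate 1, the others keeping theirs (Hbb-b1 ran up to 0.32, without normal replicate 2). The 1 red cell gene called in TAC-R against normal, Alas2, became 0 with the replicate number as a block, with only the groups compared in the fit, with quantile normalization, with control rows kept in and with array weights, and 0 to 0 when leaving out 1 array (5 to 8 genes at an unadjusted p under 0.05). The count became 3 with an intensity trend and 2 without rows below the median of means, Hbb being added in both and Hba-a1 with the trend. Of the 4 called in TAC-R against TAC there were 7 under each of these settings. The 0 called among 63 other red cell genes became 3 with the trend, 1 with median centring and 1 without rows below the median in TAC against normal. In TAC-R against TAC it became 4 with the trend, 3 without rows below the median, and 1 with robust variances, quantile normalization, median centring or rows at the top of the scale left out. Slc4a4 turned to -0.25 in TAC against normal without normal replicate 2 and was 0.43 without normal replicate 1.

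Counts of rows called moved more. TAC against normal had 59, and 36 with the replicate block, 35 with only the groups compared, 170 with the trend and 39 with control rows. TAC-R against TAC had 100, and 47, 37, 344 and 44 in the same order, with 187 without rows below the median. TAC-R against normal had 21, and 11, 12, 156 and 10, with 68 without rows below the median, 54 with median centring and 39 without rows at the top of the scale. Leaving out 1 array gave 0 to 35, 4 to 37 and 0 to 12. Each such fit held only the 2 groups compared, which alone gave 35, 37 and 12. A lone array is then assumed to vary like the other group. Replicate numbers did not pair the arrays: deviations of same-numbered arrays correlated at 0.01, -0.01 and -0.01. The causes of these moves were not tested. Averaging several rows of a gene was not run, since each gene has 1 row. Signals in the background limit Slc4a1, Car2, Lgals5 and Alox15 outside TAC hearts, and the top of the scale limits Hba-a1 and Hbb.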
